A study of Mus musculus with 8 samples.

Results

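Cholesterol and sterol metabolism was described through 36 genes that make, sense, export or store sterols and the fatty acids controlled with them. A gene was represented by a probe set whose platform annotation gave its symbol alone, and by the brightest such probe set where there were several. By this rule 31 of the 36 genes were measured, of 22180 genes on the array, and all 31 lay above the filter on dim genes and were tested with 15526 genes in all. Acat2, Nr1h2 and Soat1 had no probe set of that kind, Idi1 and Scd2 were named only together with other genes, and these 5 were not analysed here. The samples were mouse medulloblastomas, which arise in the cerebellum, harvested on postnatal day 15: 4 of the genotype Math1-Cre/SmoM2/Bcl2l1 f/f and 4 of the genotype Math1-Cre/SmoM2. Both genotypes share Math1-Cre and SmoM2, an oncogenic Smoothened turned on by Cre from the Math1 promoter, which is active in granule neuron precursors. No mouse was given an agent. The labels do not say that each array is a separate animal, so p-values measure the spread between these samples. The former, called Bcl2l1-deleted, also lost floxed Bcl2l1 (the gene of the survival protein BCL-xL) where Cre was active, and the latter is called control. Cells that do not express Math1-Cre, such as microglia, astrocytes and endothelium, are part of the tissue and are not targets of the deletion.

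Cells build cholesterol from acetyl-CoA through mevalonate, farnesyl diphosphate, squalene and lanosterol. When membrane sterol is low, SCAP escorts the SREBP transcription factors out of the endoplasmic reticulum and the genes of synthesis are switched on, while INSIG proteins hold the complex back when sterol is plentiful. Oxysterols activate the liver X receptors (LXR), which raise the genes of cholesterol export. In the brain, cholesterol is made locally, glia supply much of it on lipoprotein particles, and granule neuron precursors need sterols for Sonic hedgehog signalling through Smoothened.

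Expression was given as log2 RMA values, and the median tested gene stood 0.17 higher in the Bcl2l1-deleted tumours. A relative log2 change is therefore the fitted change (Bcl2l1-deleted minus control) minus that median shift. Its SE and its adjusted p are those of the fitted change, from limma with the Benjamini-Hochberg method applied to all tested genes, and a gene was called at an adjusted p under 0.05. Bcl2l1 itself read 5.46, 5.46, 5.69 and 5.32 in Bcl2l1-deleted replicates 1 to 4 and 6.88, 6.57, 6.93 and 6.98 in control replicates 1 to 4 (relative log2 change -1.53, adjusted p = 0.00509). Control replicate 2 stood apart, since it correlated with the rest at 0.881 to 0.925 and no other pair of arrays fell under 0.956. Its probe sets with 1 symbol had an interquartile range of 2.36, whereas controls 1, 3 and 4 had 3.23 to 3.45 and the Bcl2l1-deleted arrays 3.51 to 3.58. Median levels of olfactory and vomeronasal receptor genes, a measure of background, were 3.60, 2.94 to 3.09 and 2.79 to 2.92 in the same order. Neither measure overlapped between the genotypes (exact permutation test, two-sided, p = 0.0286, the smallest that 4 against 4 arrays can give). Both move with every comparison below, and their part in it was not tested except where a value with the receptor level as a covariate is given.

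Of the 6 measured genes of cholesterol export and LXR signalling, 4 rose in the Bcl2l1-deleted tumours, and no gene of cholesterol synthesis was called. Of the 31 members, 4 were called higher (12.9%, against 4.93% of all tested genes) and 0 lower (1.60% of all tested genes). The 4 were Mylip, Nr1h3, Abca1 and Lcat. By this fit 13 of the 31 members had an unadjusted p under 0.05, as did 4730 of the 15526 tested genes. In 11 members (35.5%) every Bcl2l1-deleted array lay above every control array, against 19.0% of all tested genes, and in 0 members did all Bcl2l1-deleted arrays lie below, against 4.46%. The median relative log2 change was 0.26 over the members, 0.26 over the 16 synthesis genes and 0.64 over the 6 efflux and LXR genes, beside 0 over all tested genes by definition.

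The balance of higher and lower calls over all genes moved with the scaling. The median tested gene shifted by 0.17 as deposited, by 0.34 after centring each array on all its probe sets and by -0.086 after centring on the genes tested. The split was 765 higher and 248 lower as deposited, 1337 and 171 after the former centring and 390 and 699 after the latter. Adding the receptor median to the fit gave 274 and 405. Under these 4 settings the members gave 4, 5, 3 and 2 higher calls and 0 lower ones. Mylip was called in each, Nr1h3 was lost only after centring on the genes tested (adjusted p = 0.0701), and Abca1 and Lcat were lost only with the receptor median.

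**Figure D1:**
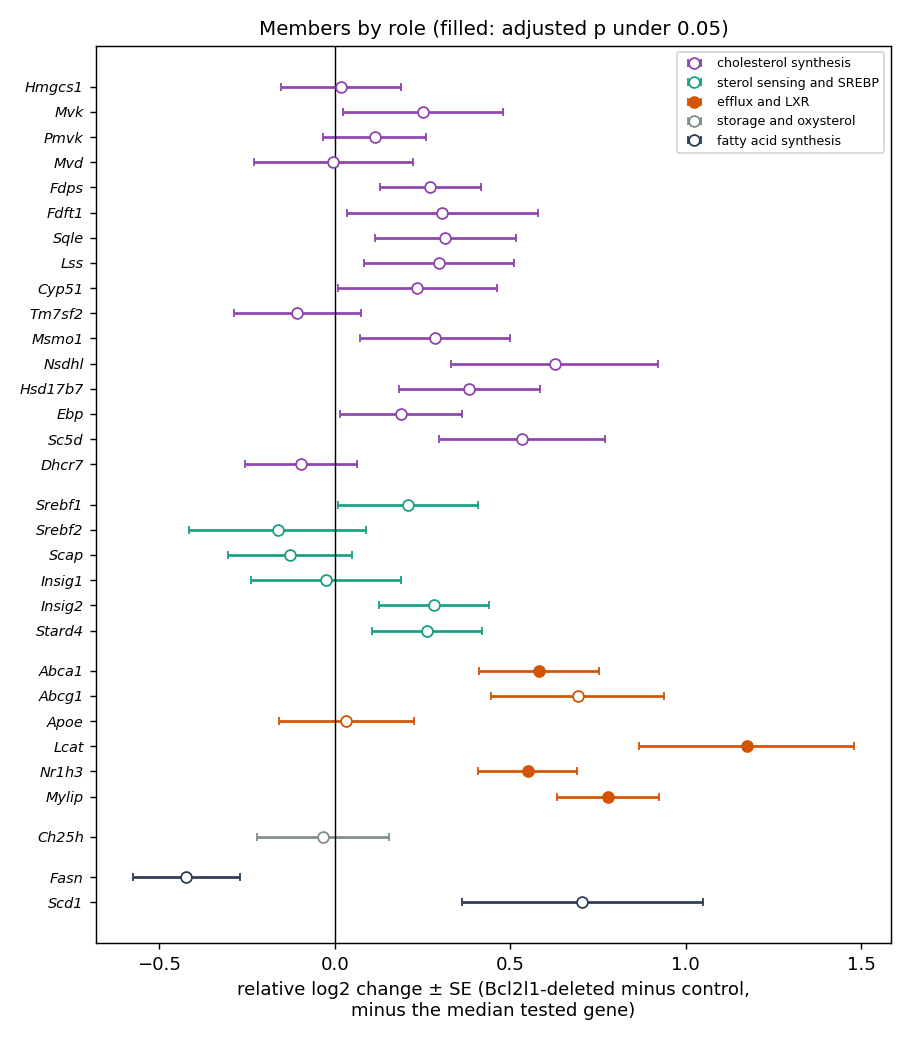
Relative log2 change ± SE (x axis) of the 31 measured genes, grouped by role, from 4 Bcl2l1-deleted and 4 control arrays. Filled points are the 4 genes past an adjusted p of 0.05, and they lie between 0.55 and 1.17.

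Lcat, lecithin-cholesterol acyltransferase, esterifies cholesterol on the lipoprotein particles that receive it. Its log2 values were 10.74, 10.40, 10.66 and 9.73 in Bcl2l1-deleted replicates 1 to 4 and 9.41, 8.33, 9.64 and 8.77 in control replicates 1 to 4. Every Bcl2l1-deleted array was above every control, with Bcl2l1-deleted replicate 4 only slightly above control replicate 3. The relative log2 change was 1.17 (SE 0.31, adjusted p = 0.0342), the largest of the members and 2.26-fold. Abca1, the transporter that loads cholesterol onto apolipoproteins, read 8.96, 9.07, 9.29 and 9.13 in the Bcl2l1-deleted tumours and 8.65, 7.99, 8.35 and 8.44 in the controls. The groups did not overlap, and the relative log2 change was 0.58 (SE 0.17, adjusted p = 0.0333). Abcg1, which exports cholesterol to particles that already hold lipid, read 8.91, 8.66, 9.14 and 8.73 against 8.44, 7.23, 8.08 and 8.22. It did not overlap either, but at a relative log2 change of 0.69 with a wider SE of 0.25 it did not pass (adjusted p = 0.0589). Control replicate 2 was the lowest of the 8 arrays for Lcat, Abca1 and Abcg1 alike.

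Nr1h3, which encodes the receptor LXR alpha, read 6.36, 6.19, 6.30 and 6.09 in the Bcl2l1-deleted tumours and 5.65, 5.41, 5.60 and 5.40 in the controls. The values were tight within each group and apart between them (relative log2 change 0.55, SE 0.14, adjusted p = 0.0228). Mylip encodes IDOL, a ubiquitin ligase that is induced by LXR and removes lipoprotein receptors from the cell surface. It read 7.85, 7.96, 7.95 and 8.12 against 7.20, 6.83, 7.06 and 6.98. The groups were well apart, and the adjusted p was the smallest of the members, with a relative log2 change of 0.78 (SE 0.15, 1.72-fold, adjusted p = 0.0128). Apoe, the main apolipoprotein of brain lipoproteins, did not follow these genes. Its values were 7.28, 7.06, 7.56 and 6.92 in the Bcl2l1-deleted tumours and 7.40, 6.95, 6.87 and 6.78 in the controls. Control replicate 1 exceeded all but 1 of the Bcl2l1-deleted arrays, and the relative log2 change was 0.033 (SE 0.19, adjusted p = 0.472), with a 95% interval from -0.39 to 0.46 that takes the median shift as fixed. The change of Apoe turned to between -0.090 and -0.041 in 5 of 22 alternatives and was never called.

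**Figure D2:**
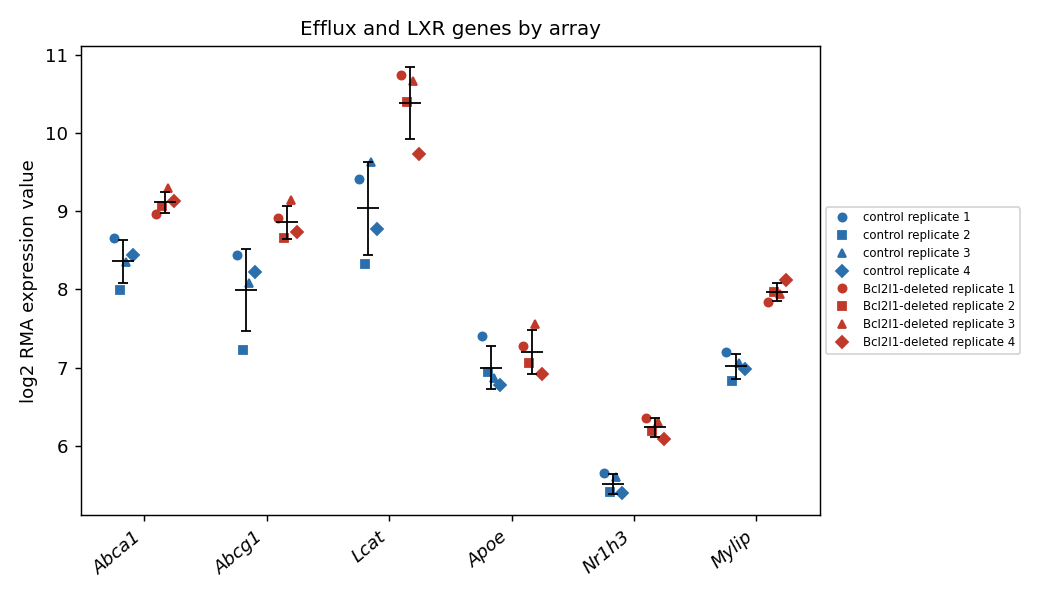
Log2 RMA values (y axis) of the 6 measured efflux and LXR genes on each array, control in blue and Bcl2l1-deleted in red, with the marker shape giving the replicate number and black marks the mean ± SD (n = 4). All genes but Apoe are without overlap between the groups.

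The calls of these genes depended on single arrays. With Bcl2l1-deleted replicate 1 left out, 0 of the 31 members passed in limma and only 20 genes did in all, and Mylip had an adjusted p of 0.0635. With Bcl2l1-deleted replicate 2 left out, 0 members and 47 genes passed, and Mylip had 0.0551. Mylip was the only member called without Bcl2l1-deleted replicate 3 or control replicate 4, and Mylip and Lcat passed without Bcl2l1-deleted replicate 4. Without control replicate 2, the array that stood apart, Abcg1 passed too (adjusted p = 0.0290) and 5 members were called, when 2100 genes passed in all (13.5%). Without control replicate 1, 8 passed, the added ones being Abcg1, Hsd17b7, Sc5d and Scd1, when 1999 genes passed in all (12.9%). Without control replicate 3 the call of Abca1 was lost (adjusted p = 0.0595). The sizes moved less than the calls: over the 8 such fits the relative log2 change ranged from 0.73 to 0.81 for Mylip, from 0.48 to 0.60 for Nr1h3, from 0.52 to 0.64 for Abca1 and from 1.03 to 1.39 for Lcat. Once the receptor median was fitted too, Mylip (adjusted p = 0.0199) and Nr1h3 (0.0382) passed, whereas Lcat (0.126) and Abca1 (0.0784) did not, and the change of Abcg1 was 0.34 in place of 0.69. With the Xist level as a covariate, which differs with the sex of the mice, Mylip alone passed (adjusted p = 0.0395).

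**Figure D3:**
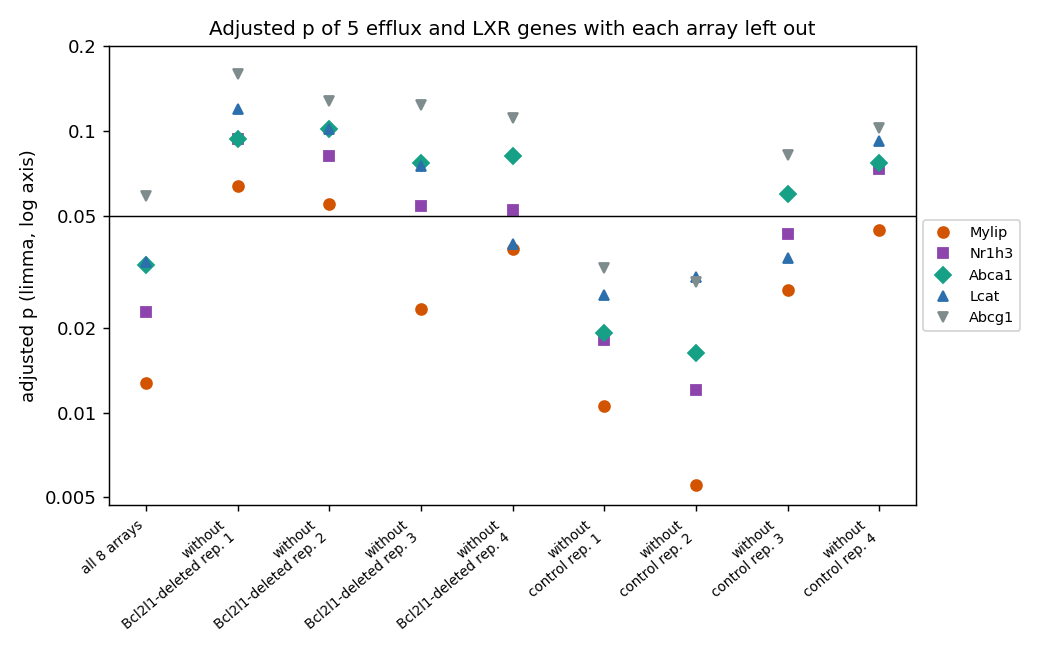
Adjusted p (log axis) of 5 efflux and LXR genes with all 8 arrays and with each array left out in turn; the line marks 0.05. Mylip lies below the line except without Bcl2l1-deleted replicates 1 and 2 (0.0635 and 0.0551), and Abcg1 lies below it only without control replicates 1 and 2.

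Markers of microglia, border macrophages, endothelium and, with overlap, astrocytes moved with the export genes in these tissue samples. Lists of markers were averaged on each array after subtraction of the array's median tested gene. Of all tested genes 4.93% were called higher and 1.60% lower. The level of 13 microglia markers was 0.98 to 1.20 in the Bcl2l1-deleted tumours and -0.043 to 0.80 in the controls, with 6 markers called higher and 0 lower, and with Siglech at -0.48 (relative log2 change) as the only one below 0. Border macrophage markers stood at -0.81 to -0.36 against -1.11 to -0.83, 2 of 7 higher, with Cd163 (relative log2 change -0.22) alone below 0. Endothelial markers stood at 0.37 to 0.38 against -0.33 to 0.014, 4 of 6 higher. Astrocyte markers stood at 2.62 to 3.04 against 2.08 to 2.80, which overlap, with 3 of 8 higher (Aqp4, Aldh1l1 and S100b). Among them Slc1a2 alone had a relative log2 change below 0 (-0.093). Oligodendrocyte markers went the other way, -0.84 to 0.64 against 0.79 to 1.75, with 2 of 8 lower, and with Cnp at 0.47 (relative log2 change, adjusted p = 0.142) as the only one above 0. Differentiating granule neuron markers (6 of 7 lower, -1.72 to 0.042 against 0.98 to 1.59) and choroid plexus markers (2 of 4 lower, -1.68 to -1.05 against 0.49 to 0.90) did so too, and of 3 Purkinje cell markers 0 were called. Markers of granule neuron progenitors, the cells that carry the tumour, were at 2.98 to 3.17 against 3.08 to 3.29, and 0 of 8 were called. The lowest marker value was 2.28 for Gabra6 on Bcl2l1-deleted replicate 4, below that array's receptor median of 2.92. On the same array Ermn (3.63), Fat2 (3.80) and Folr1 (4.01), among others, lay under 4.38, the level of the filter on dim genes. Such values are near background. The part of these cell types in the changes of the export genes was not tested, and in bulk tissue more cells of a type cannot be told apart from more RNA per cell.

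Most genes of cholesterol synthesis lay slightly above the median tested gene, and none passed the test with all arrays weighted alike. With array weights 5 of the 16 were called higher (Fdps, Hsd17b7, Nsdhl, Pmvk and Sc5d), when 3494 genes were called in all (22.5%). Without control replicate 1, 2 were called higher (Hsd17b7 and Sc5d), when 1999 genes were called in all (12.9%). Of the 16 measured genes, 13 had a relative log2 change above 0 and 3 below, over a range from -0.11 for Tm7sf2 to 0.63 for Nsdhl. In 4 of the 16 (Pmvk, Fdps, Nsdhl and Sc5d) all Bcl2l1-deleted arrays lay above all controls, near the 19.0% background of all tested genes. The median of 0.26 became 0.090 with the receptor level fitted and 0.15 without control replicate 2. Over all 22 alternatives it lay between 0.090 and 0.40, and below the median of the efflux and LXR genes (0.54 to 0.77) in each of them. The variance priors, the plain linear model, the replicate block and both centrings cannot change these medians. Those settings therefore do not test the order of the medians, and the others reuse the same arrays.

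The first steps, from acetoacetyl-CoA to farnesyl diphosphate, had a median relative log2 change of 0.11 over 5 genes. Hmgcs1, the cytosolic HMG-CoA synthase and a classical SREBP target, read 9.68, 9.61, 9.50 and 9.85 in the Bcl2l1-deleted tumours and 9.25, 9.28, 9.54 and 9.84 in the controls. Control replicates 3 and 4 fell within the range of the Bcl2l1-deleted arrays, and control replicates 1 and 2 below it (relative log2 change 0.017, SE 0.17, adjusted p = 0.455). The kinases Mvk (0.25, adjusted p = 0.227) and Pmvk (0.11, adjusted p = 0.210) and the decarboxylase gene Mvd (-0.0042, adjusted p = 0.622) did not pass. Mvd was nearly constant in the Bcl2l1-deleted tumours, from 7.26 to 7.31, and spread from 6.44 to 7.499 in the controls. Fdps, farnesyl diphosphate synthase, had the smallest adjusted p of the synthesis genes. It read 10.19, 10.20, 9.96 and 10.31 against 9.88, 9.66, 9.70 and 9.64, a relative log2 change of 0.27 (SE 0.14, adjusted p = 0.0800).

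The later steps, from squalene on, had a median relative log2 change of 0.30 over 11 genes. The relative log2 change was 0.31 for squalene synthase (Fdft1), 0.32 for squalene epoxidase (Sqle) and 0.30 for lanosterol synthase (Lss), with adjusted p of 0.250, 0.134 and 0.166. Without control replicate 2 these changes were 0.086, 0.23 and 0.19, and with the receptor level fitted -0.14, 0.21 and 0.13. Sqle, a rate-limiting step of the pathway, read 8.81, 8.62, 8.50 and 8.93 in the Bcl2l1-deleted tumours and 8.36, 7.72, 8.22 and 8.61 in the controls. Control replicate 4 fell within the range of the Bcl2l1-deleted arrays, and control replicate 2 far below. Lanosterol is then demethylated, reduced and rearranged, and a complex of enzymes removes methyl groups in these steps. Nsdhl, a sterol dehydrogenase of that complex, read 8.39, 8.80, 8.34 and 8.78 against 8.15, 6.78, 8.23 and 7.96 (relative log2 change 0.63, SE 0.30, adjusted p = 0.106). The change of Nsdhl was 0.38 without control replicate 2 and 0.17 with the receptor level fitted. Its partners Msmo1 (0.29, adjusted p = 0.174) and Hsd17b7 (0.38, adjusted p = 0.102) and the lanosterol demethylase Cyp51 (0.24, adjusted p = 0.241) overlapped between the groups, as did the reductase Tm7sf2, which acts after Cyp51 (-0.11, adjusted p = 0.822).

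At the end of the pathway the changes were of both signs. Sc5d, the lathosterol desaturase, read 8.63, 8.62, 8.47 and 8.55 in the Bcl2l1-deleted tumours and 8.41, 7.14, 8.06 and 7.84 in the controls (relative log2 change 0.53, SE 0.24, adjusted p = 0.0871). It was called in 2 of 22 alternatives, with array weights and without control replicate 1. The isomerase Ebp had a change of 0.19 (adjusted p = 0.184), whereas Dhcr7, the final reductase, stood at -0.10 (adjusted p = 0.761). For Dhcr7 control replicate 3 (7.35) exceeded 3 of the 4 Bcl2l1-deleted arrays, the other one being at 7.43.

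**Figure D4:**
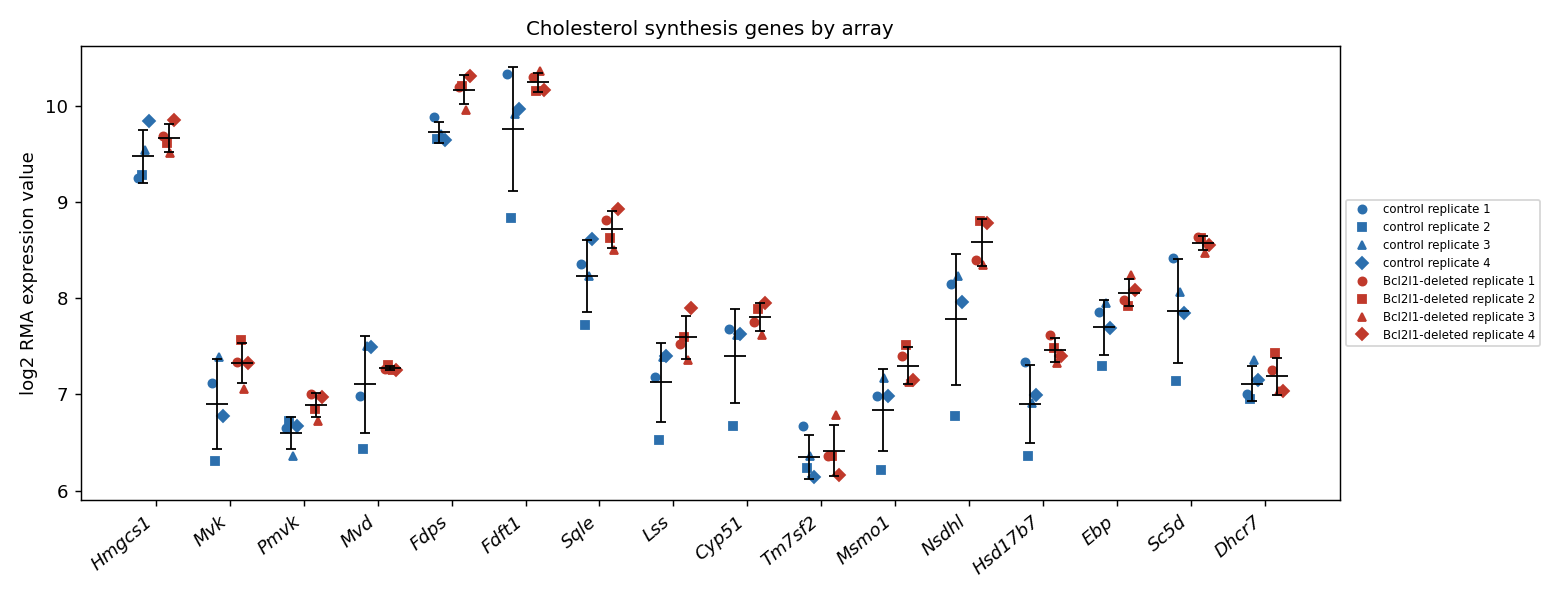
Log2 RMA values (y axis) of the 16 measured cholesterol synthesis genes in pathway order on each array, control in blue and Bcl2l1-deleted in red, with black marks the mean ± SD (n = 4). Control replicate 2 (square) is the lowest of the 8 arrays for 12 of the 16 genes.

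Control replicate 2 was the lowest array for 21 of the 31 members (67.7%), as for 54.6% of all tested genes. The SD was larger among the controls than among the Bcl2l1-deleted tumours in 26 of the 31 members (83.9%), against 81.8% of all tested genes. Without control replicate 2 it was larger in 19 (61.3%), against 57.4% of all tested genes.

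Promoter sequences were then compared across the members. RefSeq promoters (GRCm38.p6, 250 bases before to 50 bases after a start) were matched by symbol for 25 of the 31 members, with no entry for Abcg1, Fdft1, Fdps, Scd1, Sqle and Stard4. They were searched on both strands for the sterol regulatory element TCACNCCAC, bound by SREBP, for the CCAAT box of NF-Y, its usual partner, and for an LXR element, GGTCA repeated after 5 free bases. No motif contains another, and CCAAT reads ATTGG on the opposite strand. A CCAAT box was present in 13 of 13 synthesis genes, in 2 of 5 efflux and LXR genes (Mylip and Lcat) and in 20 of 25 members, against 41.1% of the 27025 genes of the table. For Dhcr7 and Pmvk only 1 of several annotated starts had it. The strict sterol regulatory element was found in 1 member, Hmgcs1, against 1.44% of all genes. The LXR element, an even stricter pattern, was found in 0 members, against 0.0851% of all genes. With so rare a pattern, 0 of 25 members cannot show that these promoters lack an LXR element. Looser forms of it were not searched.

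The sequence before the start of Hmgcs1 is given because it holds both motifs. Capitals mark the sterol regulatory element, whose first base is at position -137 from the start, and 3 boxes that read ATTGG on this strand.
Hmgcs1 (chr13:119690101-119690350, plus strand): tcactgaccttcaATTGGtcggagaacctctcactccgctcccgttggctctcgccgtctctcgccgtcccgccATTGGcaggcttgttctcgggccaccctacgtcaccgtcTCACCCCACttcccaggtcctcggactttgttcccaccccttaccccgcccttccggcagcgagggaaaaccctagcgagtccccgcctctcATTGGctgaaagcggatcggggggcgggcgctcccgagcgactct

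For the 13 synthesis genes, 31 bases are shown in pathway order, with 13 bases on either side of a CCAAT box, so that the shared motif and its unlike surroundings can be compared. The box is the one nearest to the start among those whose 31 bases end before it, which passes over nearer boxes of Hsd17b7 (at -12) and Mvk (at -14). Each is read along the gene's own strand, with the box in capitals.
Hmgcs1 (chr13:119690293-119690323, plus strand): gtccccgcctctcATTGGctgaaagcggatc
Mvk (chr5:114444206-114444236, plus strand): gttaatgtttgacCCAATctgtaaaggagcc
Pmvk (chr3:89454392-89454422, plus strand): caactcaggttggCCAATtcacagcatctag
Mvd (chr8:122443432-122443462, minus strand): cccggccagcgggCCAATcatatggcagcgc
Lss (chr10:76531530-76531560, plus strand): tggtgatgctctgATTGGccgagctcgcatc
Cyp51 (chr5:4104709-4104739, minus strand): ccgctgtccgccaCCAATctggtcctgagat
Tm7sf2 (chr19:6067880-6067910, minus strand): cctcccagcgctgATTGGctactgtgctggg
Msmo1 (chr8:64733616-64733646, minus strand): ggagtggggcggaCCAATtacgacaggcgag
Nsdhl (chrX:72918488-72918518, plus strand): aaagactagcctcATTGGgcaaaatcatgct
Hsd17b7 (chr1:169969261-169969291, minus strand): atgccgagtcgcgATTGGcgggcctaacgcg
Ebp (chrX:8193550-8193580, minus strand): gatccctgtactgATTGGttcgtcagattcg
Sc5d (chr9:42264307-42264337, minus strand): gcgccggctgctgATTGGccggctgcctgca
Dhcr7 (chr7:143830152-143830182, plus strand): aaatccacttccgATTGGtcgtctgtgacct

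The boxes shown begin between 20 (Nsdhl) and 136 (Pmvk) bases before the start. The called efflux genes Mylip and Lcat carry boxes of the same kind, 67 and 80 bases before the start, shown for comparison and chosen after their values were seen.
Lcat (chr8:105943465-105943495, minus strand): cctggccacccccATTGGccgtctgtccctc
Mylip (chr13:45389662-45389692, plus strand): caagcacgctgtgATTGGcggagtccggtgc

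A CCAAT box was thus present in promoters of genes that were called (Mylip, Lcat) and of genes that were not (all 13 synthesis genes), while those of Abca1 and Nr1h3, also called, had none in this window.

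The regulators of sterol sensing showed no call. Srebf2, the SREBP that controls cholesterol genes, read 9.27, 9.32, 9.14 and 9.27 in the Bcl2l1-deleted tumours. The controls fell into a low pair, 8.73 and 8.75 in replicates 1 and 2, and a high pair, 9.62 and 9.85 in replicates 3 and 4, so the Bcl2l1-deleted arrays lay in between (relative log2 change -0.16, SE 0.25, adjusted p = 0.982). Hmgcs1 was likewise lower in control replicates 1 and 2 than in 3 and 4, as were Mvd, Lss, Dhcr7, Stard4 and Fasn. The other members, among them Insig1, Fdps and Sqle, did not share this split. Srebf1, whose product favours fatty acid genes and which is itself induced by LXR, had a change of 0.21 (SE 0.20, adjusted p = 0.217). Its control replicate 1, at 9.71, was above 3 of the 4 Bcl2l1-deleted arrays, which spanned 9.49 to 9.79. The escort protein gene Scap stood at -0.13 (adjusted p = 0.881).

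Insig1, a direct SREBP target, had a change of -0.025 (SE 0.21, adjusted p = 0.649) with values of 8.54 to 8.91 against 8.13 to 9.07. Insig2 read 7.14, 7.22, 7.35 and 7.06 against 6.98, 6.45, 6.80 and 6.72, without overlap but short of the threshold (0.28, SE 0.16, adjusted p = 0.0918). Whether the 2 genes' changes differ was not tested. Stard4, a carrier of cholesterol between membranes, read 7.10, 7.16, 7.11 and 7.30 against 6.51, 6.56, 6.89 and 6.97, also without overlap (0.26, SE 0.16, adjusted p = 0.1004).

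The oxysterol gene Ch25h and the fatty acid genes Fasn and Scd1 gave no call, and the storage gene Soat1 was not measured. Ch25h, which makes the oxysterol 25-hydroxycholesterol in macrophages, was dim, at 4.49 to 5.06 against 4.38 to 5.01 (relative log2 change -0.033, adjusted p = 0.622). Its other probe set was dimmer still (mean 4.12) and went the other way, by -0.41 before the median shift against 0.14 for the probe set used. Fasn, fatty acid synthase, had the lowest relative change of the members. It read 10.37, 10.24, 10.39 and 10.64 in the Bcl2l1-deleted tumours and 10.47, 10.61, 10.74 and 10.83 in the controls (relative log2 change -0.42, SE 0.15, adjusted p = 0.275). The groups overlapped through Bcl2l1-deleted replicate 4, and its adjusted p lay between 0.0883 and 0.759 over the alternatives. Scd1, the stearoyl-CoA desaturase, read 8.45, 8.56, 8.58 and 8.89 against 8.73, 6.69, 7.91 and 7.65. Its change of 0.71 came with an SE of 0.34 (adjusted p = 0.120), and control replicate 1 lay inside the range of the Bcl2l1-deleted arrays. It was 0.44 without control replicate 2 and passed without control replicate 1 and with array weights.

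Synthesis and export genes were also set against each other on each array. The mean of the 16 synthesis genes minus the mean of the 6 efflux and LXR genes was -0.26, -0.10, -0.50 and -0.0069 in Bcl2l1-deleted replicates 1 to 4 and 0.071, 0.072, 0.25 and 0.37 in control replicates 1 to 4. All Bcl2l1-deleted arrays were below all controls, with a difference of -0.41 between the group means, and of -0.48 to -0.31 with 1 array left out. Relative to the array's median tested gene, the synthesis mean was 1.06 to 1.24 against 0.94 to 1.11, which overlap, and the efflux mean 1.25 to 1.57 against 0.70 to 0.98, which do not. Among the Bcl2l1-deleted arrays, replicate 3 had the highest efflux mean and the lowest synthesis mean, and replicate 4 the lowest efflux mean. Astrocyte markers were likewise highest on Bcl2l1-deleted replicate 3 (3.04) and lowest on replicate 4 (2.62). Oligodendrocyte (0.64 and -0.84), differentiating granule neuron (0.042 and -1.72) and Purkinje cell markers (2.89 and -1.39) had the same extremes. The means of these 3 lists were lower in the Bcl2l1-deleted tumours. Microglia markers were instead highest on Bcl2l1-deleted replicate 1 (1.20). The synthesis minus efflux score is a description and carries no test.

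**Figure D5:**
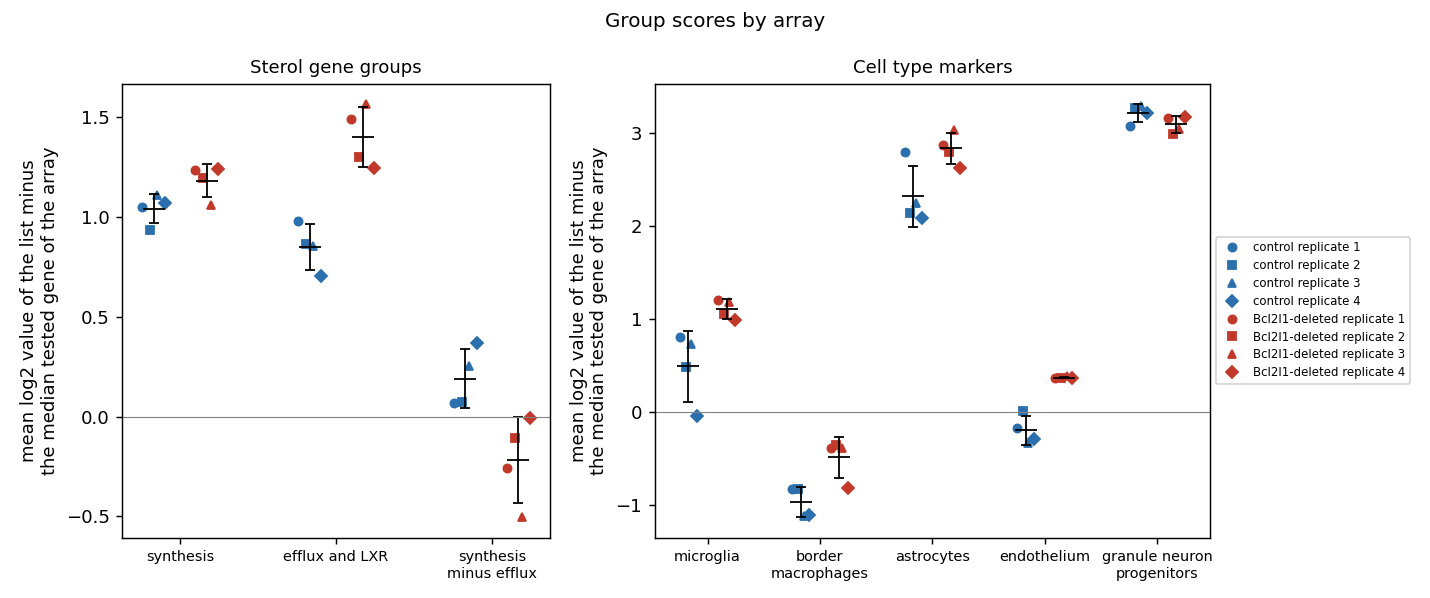
Mean log2 value of each gene list on each array minus the array's median tested gene (y axis), for sterol genes (left, with synthesis minus efflux as the third column) and cell type markers (right), control in blue, Bcl2l1-deleted in red, black marks the mean ± SD (n = 4). The efflux and LXR mean is 1.25 to 1.57 on the Bcl2l1-deleted arrays and 0.70 to 0.98 on the controls.

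Among 48 tested genes of the pathway outside the 36, 2 were called higher (4.17%), a share near the 4.93% of all tested genes, and 0 lower. In the list of further efflux, LXR and oxysterol genes 1 of 12 was higher and 0 lower, Apoc1, an apolipoprotein gene activated by LXR in macrophages. It read 7.57, 7.31, 7.25 and 6.96 against 6.80, 5.85, 5.49 and 5.60 (relative log2 change 1.17, SE 0.27, adjusted p = 0.0245) and was called in 16 of 22 alternatives. Among 12 fatty acid genes that SREBP-1 targets, 1 was higher and 0 lower. This was Me1, malic enzyme, a source of NADPH (0.60, SE 0.20, adjusted p = 0.0482), which was called in only 9 of 22 alternatives and lost its call with each of the Bcl2l1-deleted arrays left out in turn (adjusted p = 0.0899 to 0.138) and without control replicate 3 or 4 (0.0657 and 0.119). The call of Apoc1 was lost when Bcl2l1-deleted replicate 1 (adjusted p = 0.0936), Bcl2l1-deleted replicate 2 (0.0845), control replicate 3 (0.0534) or control replicate 4 (0.0753) was left out.

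No gene passed in the remaining lists. Among 7 genes of the isoprenoid branch the smallest p were those of the farnesyltransferase subunit Fnta (relative log2 change 0.50, adjusted p = 0.0797) and of Pggt1b (0.32, adjusted p = 0.168). Among 12 genes of sterol uptake and trafficking, 6 were above and 6 below the median gene, and the lysosomal lipase gene Lipa (0.78, adjusted p = 0.0720) and Stard3 (0.15, adjusted p = 0.184) had the smallest p. Lipa read 8.19 to 8.37 in the Bcl2l1-deleted tumours and 6.35 to 7.95 in the controls, without overlap. Among 5 genes of SREBP processing the smallest p were those of Erlin1 (0.75, adjusted p = 0.0696) and Erlin2 (0.34, adjusted p = 0.0842), both of which encode proteins that help degrade sterol enzymes.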

How the data were processed

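Total RNA of 8 mouse medulloblastomas was hybridised after biotin labelling (Affymetrix kit), per the labels. The deposited log2 values were computed by the authors with RMA in Partek, per the labels and the submitters' processing notes. RMA corrects background and compresses differences near it. A Partek version is not given in the sources used here, nor is a build. Scanner files were not used here. Values lay between 0.68 and 13.2. The number of arrays, 4 per group, limits the precision.

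Groups came from the sample titles and match the genotype field, whereas a further field gives deleted status for all 8 samples and was not used. The members and lists were chosen with earlier results of these data known. Of 41345 probe sets 23521 had 1 symbol, 1814 several and 16010 none, and names were updated by Entrez ID against the GRCm38.p6 gene table (0 changed). Dim genes, whose mean did not exceed the 30th percentile (4.38), were left out. The model was limma's (version 3.58.1, R 4.3.3, lmFit and eBayes, two-sided, no covariate), with adjustment over all 15526 genes, and the fit was checked on simulated data. Named genes were all measured members and, of further pathway lists, those called (at most 6 a list) or else the 2 with the smallest p. Alternatives were dim filters, variance priors, normalizations, covariates, array weights, a replicate block, probe set choices and each array left out.

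Same-numbered arrays of the groups were not paired by the labels, and their deviations from the group means correlated at 0.04, 0.02, -0.13 and 0.05.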

Additional observations from a re-analysis of the deposited data

Results flagged for a closer look

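In 2 of 68 sets of 4 arrays (1 set per gene or score and genotype), 1 array lay far from the other 3, where chance gives about 5%. Cyp51, the lanosterol demethylase, read 6.67 on control replicate 2 and 7.61 to 7.67 on the other controls. Scap, the escort protein of SREBP, read 7.62 on control replicate 2 and 8.18 to 8.30 on the other controls.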

How the results depend on the processing

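Of 681 values of members under 22 alternatives, 607 kept their direction and their side of the threshold, 27 lost a call, 14 gained one and 33 changed sign, none of the last being called in either setting. No member was called lower in any setting. The count of members called, 4, became 1 with a plain linear model, 2 with the receptor median as a covariate, 12 with array weights, 1 with the Xist level as a covariate and 0 to 8 with 1 array left out. The 1013 genes called in all became 548 without the dim filter, 43 with a plain linear model, 3494 with array weights, 508 with the replicate block, 200 with the Xist level and 20 to 2100 with 1 array left out. The replicate block left 3 members called, without Abca1 (adjusted p = 0.0615), and the numbers do not pair the samples. Leaving out an array leaves fewer samples, and otherwise the cause was not tested. Ch25h could not be tested with the filter at the 50th percentile. With 4 arrays per group, precision is limited by their number. The median tested gene shifted by 0.039 without the dim filter and 0.17 with it, and small negative relative changes turned with it.

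Changes of sign were as follows (relative log2 change). Without the dim filter they were Mvd 0.13, Tm7sf2 0.027, Dhcr7 0.037, Scap 0.0048, Insig1 0.11 and Ch25h 0.10, and with the filter at the 50th percentile Hmgcs1 -0.066 and Apoe -0.050. With quantile normalization they were Hmgcs1 -0.064, Apoe -0.064 and Ch25h 0.18, and with the receptor median Fdft1 -0.14, Cyp51 -0.042 and Ch25h 0.39. With array weights they were Insig1 0.033 and Ch25h 0.20, with the Xist level Insig1 0.062 and Ch25h 0.029, and with probe sets averaged Mvd 0.0025. With 1 array left out, the ranges were -0.095 to 0.11 for Hmgcs1, -0.14 to 0.10 for Mvd, -0.37 to 0.015 for Srebf2, -0.13 to 0.088 for Insig1, -0.090 to 0.13 for Apoe and -0.16 to 0.17 for Ch25h.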
